A study of Homo sapiens with 12 samples.

Results

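The genes described here encode enzymes that make NADPH or carry out steps of the pentose phosphate pathway. They are PGD, PGLS, RPIA, TKT, TALDO1, ME1, IDH1, IDH2 and NNT, picked by symbol with earlier results of these data known, and they are 9 of the 55242 genes in the count tables once rRNA genes were left out. RNA was sequenced from Hs 578T cells, a triple-negative breast cancer (TNBC) line, transduced with lentiviral vectors for either GFP, the control protein, or full-length NRF2, and kept for 8 h with or without cystine (Cyss), the oxidized form of cysteine. The medium with Cyss held 0.8 mM l-cystine, and the medium without Cyss had none added. The 4 groups, GFP with Cyss, GFP without Cyss, NRF2 with Cyss and NRF2 without Cyss, had 3 libraries each. All 4 groups shared the transduction, a high-glucose DMEM base and added methionine, glutamine and serum. The control cells were thus transduced cells and not the parental line. Nothing in the labels says whether the 3 libraries of a group came from separate cultures, so the p-values measure the spread between these libraries, which may be technical.

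NADPH is the electron donor that cells use to reduce oxidized glutathione and thioredoxin, to reduce imported Cyss to cysteine and to build lipids. The oxidative branch of the pentose phosphate pathway makes it while converting glucose 6-phosphate to ribulose 5-phosphate, and the non-oxidative branch then rearranges the sugar phosphates and returns carbon to glycolysis. NRF2, encoded by NFE2L2, is a transcription factor of the oxidative stress response that binds the antioxidant response element (ARE), and PGD, TALDO1, TKT and ME1 are known among its targets. IDH1, ME1 and the pentose phosphate enzymes act in the cytosol, whereas IDH2 and NNT supply NADPH inside mitochondria.

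The stretches before the annotated starts of PGD, ME1, IDH1, TALDO1 and TKT are shown here because these genes carry most of the differences described here and because those of PGD, ME1 and IDH1 hold letters of the core of an ARE. The motif searched was TGACNNNGC on either strand, within 250 bases before each start in RefSeq. It was present in 10.9% of 35116 windows and before 13.2% of 27305 genes. Among the 9 genes it was found before 3, in 3 of their 11 windows. In PGD the match began at -201 from the start and reads on the other strand. In ME1 it began at -137, and its letters TGACTCAGC also contain TGACTCA, the motif of the AP-1 factors. In IDH1 it began at -143 from a second annotated start. No match was present in the windows of TALDO1 and TKT. The sequences are on GRCh37 (hg19) and read 5′ to 3′ on the strand of the gene, with the match in capitals, and stretches inside exons of protein-coding genes were left out. The RefSeq starts of PGD and IDH1 used here lie inside the gene spans of GENCODE given below, which also hold starts further upstream.
PGD, chr1:10458871-10459100, plus strand: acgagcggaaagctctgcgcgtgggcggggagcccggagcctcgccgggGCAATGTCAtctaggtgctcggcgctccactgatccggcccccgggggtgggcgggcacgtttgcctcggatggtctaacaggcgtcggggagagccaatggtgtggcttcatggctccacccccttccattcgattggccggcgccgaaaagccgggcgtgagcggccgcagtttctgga
ME1, chr6:84140771-84141020, minus strand: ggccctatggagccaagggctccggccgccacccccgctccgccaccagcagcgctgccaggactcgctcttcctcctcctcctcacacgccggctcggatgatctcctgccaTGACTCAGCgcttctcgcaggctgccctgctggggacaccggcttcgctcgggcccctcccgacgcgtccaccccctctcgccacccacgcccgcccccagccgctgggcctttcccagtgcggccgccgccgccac
IDH1, chr2:209119838-209120045, minus strand: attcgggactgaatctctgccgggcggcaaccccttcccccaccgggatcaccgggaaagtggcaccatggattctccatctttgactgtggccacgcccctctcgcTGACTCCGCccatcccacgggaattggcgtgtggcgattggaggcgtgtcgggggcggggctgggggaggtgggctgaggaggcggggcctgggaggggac
TALDO1, chr11:747214-747414, plus strand: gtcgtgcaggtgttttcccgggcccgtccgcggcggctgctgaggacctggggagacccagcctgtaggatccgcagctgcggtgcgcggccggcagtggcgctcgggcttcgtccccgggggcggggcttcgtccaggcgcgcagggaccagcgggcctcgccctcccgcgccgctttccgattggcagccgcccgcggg
TKT, chr3:53290069-53290288, minus strand: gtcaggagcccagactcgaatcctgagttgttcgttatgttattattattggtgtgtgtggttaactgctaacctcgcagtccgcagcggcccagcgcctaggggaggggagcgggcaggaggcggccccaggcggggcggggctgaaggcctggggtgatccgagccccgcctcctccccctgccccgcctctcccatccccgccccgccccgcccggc
A match of letters does not show that a factor binds there, and the absence of a match says only that these letters are not in this window.

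The libraries held 27334061 to 44734611 reads on genes. Libraries of 1 group differed by more than sampling noise in every pair. The chi-square statistic over genes, divided by its degrees of freedom, was 2.22 to 2.69 for NRF2 with Cyss, 2.92 to 5.41 for GFP without Cyss and 3.13 to 7.08 for GFP with Cyss. The spread was widest for NRF2 without Cyss, at 6.42 between replicates 1 and 2, 5.53 between 2 and 3 and 13.0 between 1 and 3, and its replicate 1 had the highest share of reads not assigned to a gene (17.1%). NFE2L2, the gene that was introduced, had 3647 to 3842 normalized counts (reads scaled to a common library size by TMM) in the GFP libraries with Cyss and 6599 to 6940 in the NRF2 libraries with Cyss, and 4501 to 4655 and 7401 to 8396 without Cyss. The libraries thus followed their labels, but reads from the introduced and the endogenous gene were counted together. The mesenchymal markers VIM, FN1, CDH2 and ZEB1 were abundant, with VIM between 142637 and 167992 normalized counts, whereas EPCAM, CLDN3, CLDN7 and KRT19 were at 3.3 or below and CDH1 at 13.8 or below in all 12 libraries, although the labels call the line epithelial. The summed epithelial markers ranged from 6.6 to 18.4 over the 12 libraries, and the endothelial markers CDH5 and VWF from 2.6 to 7.7. Of the leukocyte markers, CD3E was at 0 in all 12 libraries, PTPRC ranged from 18.8 to 52.9 and CD14 from 19.1 to 29.9.

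When levels were compared per length, as normalized counts per kb of annotated exon in GFP cells with Cyss, TKT stood first with 2720 ± 116 (SD, n = 3). PGD (1240 ± 32.8), IDH2 (1239 ± 84.2) and TALDO1 (1152 ± 34.8) followed, and PGD and IDH2 differed by less than their spread. IDH1 had 574 ± 5.85 and ME1 566 ± 25.5 per kb, which also differed by less than their spread. RPIA had 383 ± 5.13, and NNT (323 ± 10.6) and PGLS (321 ± 20.3) could not be ordered. TKT stayed first in all 4 groups, at 3158 ± 72.3 per kb in NRF2 cells with Cyss. In those cells PGD (1429 ± 9.55) and TALDO1 (1429 ± 21) were level, and IDH2 (1387 ± 54.1) was within its SD of both. The lengths are the union of all annotated exons, from 1.81 kb for RPIA to 12 kb for NNT, and not the length of the transcripts that these cells make.

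The first question was whether added NRF2 moved these genes when Cyss was present. Of the 9 genes, 5 were higher in NRF2 than in GFP cells (PGD, TALDO1, TKT, ME1 and IDH2) and 1 was lower (RPIA), at an adjusted p under 0.1 by edgeR's quasi-likelihood test. Over all 17449 genes tested, 4.15% were called higher and 2.28% lower. In RNA from bulk cells, a change in the share of cells that carry a transcript and a change of RNA per cell cannot be told apart. The median log2FC (log2 of the fold change) was 0.16 over the 9 genes and 0.00 over all genes tested. None of the 9 changes passed 0.32 in size, the fold that the study set for a DEG, and the largest was a ratio of 1.24 for TALDO1.

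The second question was what withdrawal of Cyss did. In GFP cells 2 genes fell (TKT and ME1) and 1 rose (PGLS), against 2.81% of all 17452 genes called lower and 3.11% called higher. In NRF2 cells 6 fell (TKT, TALDO1, IDH2, IDH1, PGD and ME1) and 0 rose. The 6 were called lower also without any single library of NRF2 without Cyss, the group with the widest spread. Without NRF2 with Cyss replicate 3 the count was 5, since ME1 was lost. Over all 17266 genes tested in NRF2 cells, 13.8% were called lower and 15.2% higher, so calls were more frequent there for genes at large. At an unadjusted p under 0.05 and by the Wald test of DESeq2 also, 0 of the 9 were higher in NRF2 cells without Cyss. In GFP cells 3 of the 9 were lower and 1 higher at an unadjusted p under 0.05. Of the genes called, only TKT in NRF2 cells fell by more than 0.32 on the log2 scale, and 5.14% of all genes tested there were both called lower and past that size. The median log2FC of the 9 genes was -0.09 in GFP cells and -0.24 in NRF2 cells, beside 0.00 and -0.01 for all genes tested.

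Without Cyss, NRF2 cells differed from GFP cells in 2 of the 9 genes. ME1 was higher and IDH1 lower, with 14% of all 17297 genes called higher and 14.7% lower. The 4 comparisons share groups, since each group of libraries enters 2 of them, so their counts are not independent of each other. With 3 against 3 libraries an exact two-sided permutation test of a single gene cannot give a p under 0.1, and the adjusted p-values below come from edgeR's fit over all genes with Benjamini-Hochberg adjustment.

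**Figure D1:**
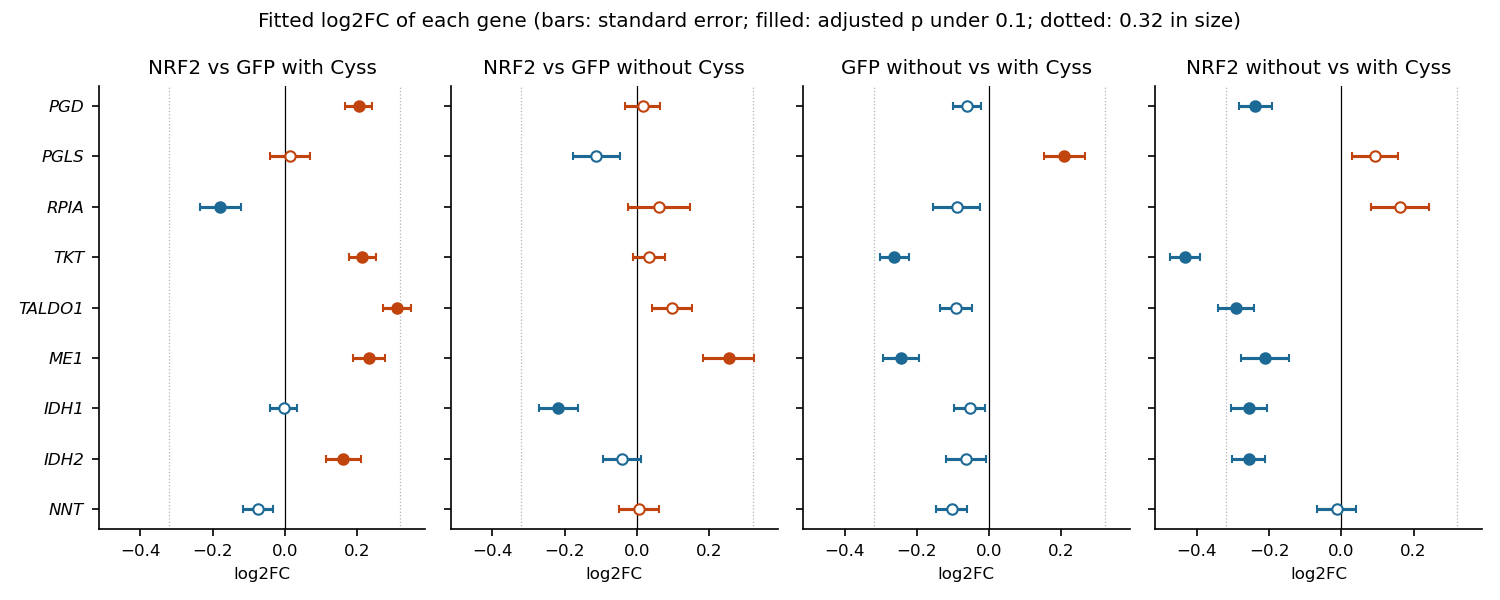
Fitted log2FC (x axis, log2 scale) of the 9 genes in the 4 comparisons, with the standard error as bars, filled points for an adjusted p under 0.1 and dotted lines at 0.32 in size. The filled points lie right of 0 for 5 genes in NRF2 against GFP cells with Cyss and left of 0 for 6 genes in NRF2 cells without against with Cyss.

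In the oxidative branch, PGLS hydrolyses 6-phosphogluconolactone and PGD oxidizes 6-phosphogluconate, releasing NADPH. PGD (chr1:10458649-10480568, plus strand) had 4023, 4242 and 4129 normalized counts in the GFP libraries with Cyss and 3981, 4038 and 3869 in those without. In the NRF2 libraries it had 4746, 4742 and 4799 with Cyss and 3845, 4097 and 4182 without. The 3 NRF2 libraries with Cyss stood above the other 9, which overlapped each other. PGD was higher in NRF2 than in GFP cells with Cyss by a log2FC of 0.20 (SE 0.0363, adjusted p = 0.00444) and fell in NRF2 cells without Cyss by 0.24 (SE 0.0458, adjusted p = 0.00169). In GFP cells its log2FC was -0.06 (adjusted p = 0.42), and without Cyss NRF2 and GFP cells were 0.02 apart (95% interval -0.08 to 0.11, adjusted p = 0.851). Its pseudogene PGDP1 had 247 to 405 reads of its own per library, and reads of the shared sequence may have been left uncounted.

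PGLS (chr19:17622445-17632097, plus strand) had 861, 974 and 900 normalized counts in GFP libraries with Cyss and 1035, 1098 and 1032 without. It had 951, 892 and 925 in NRF2 libraries with Cyss and 976, 914 and 1062 without. It rose without Cyss in GFP cells, where the groups did not overlap, by a log2FC of 0.21 (SE 0.0569, adjusted p = 0.0708). The rise was called in 1 of 6 fits with a library left out. Its log2FC was 0.17 (adjusted p = 0.162) without GFP with Cyss replicate 1, 0.20 (adjusted p = 0.187) without replicate 3 of that group, and 0.22 (adjusted p = 0.103), 0.18 (adjusted p = 0.254) and 0.22 (adjusted p = 0.106) without GFP without Cyss replicates 1, 2 and 3. In NRF2 cells its libraries overlapped between media (log2FC 0.09, adjusted p = 0.335). Without Cyss the log2FC of NRF2 against GFP cells was -0.11 (adjusted p = 0.242), and it reached the call only without NRF2 without Cyss replicate 3 (-0.17, adjusted p = 0.0607). The exons of PGLS share 254 bases, or 8.94%, with PGLS-DT on the other strand, and counting did not use strand. The ratio of PGD to PGLS reads within a library was 4.54 ± 0.166 (SD, n = 3) for GFP with Cyss, 3.76 ± 0.0833 for GFP without Cyss, 5.17 ± 0.164 for NRF2 with Cyss and 4.12 ± 0.313 for NRF2 without Cyss.

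In the non-oxidative branch, RPIA interconverts ribulose and ribose 5-phosphate, the sugar of nucleotides, while TKT and TALDO1 move carbon units between sugar phosphates. RPIA (chr2:88991191-89050446, plus strand) had 705, 689 and 690 normalized counts in GFP libraries with Cyss and 617, 625 and 718 without. It had 606, 649 and 587 in NRF2 libraries with Cyss and 602, 719 and 742 without. With Cyss the NRF2 libraries lay below the GFP libraries, and all other pairs of groups compared overlapped. RPIA was the 1 gene of the 9 that NRF2 cells with Cyss held at a lower level than GFP cells, with a log2FC of -0.18 (SE 0.0567, adjusted p = 0.0981). The call did not hold with scaling by library size only, with the Wald test of DESeq2 or with all 12 libraries in the fit, where the log2FC stayed between -0.19 and -0.17 over these and the other settings. It was also lost without GFP with Cyss replicate 1 (-0.17, adjusted p = 0.126), 2 (-0.19, adjusted p = 0.103) or 3 (-0.18, adjusted p = 0.226) and without NRF2 with Cyss replicate 1 (-0.17, adjusted p = 0.265) or 3 (-0.14, adjusted p = 0.335). In NRF2 cells without Cyss its log2FC of 0.16 (SE 0.0793, adjusted p = 0.165) did not pass the test, but it became 0.25 (adjusted p = 0.0107) without NRF2 without Cyss replicate 1, the lowest of that group.

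TKT (chr3:53258728-53290068, minus strand) had 25445, 27086 and 24995 normalized counts in GFP libraries with Cyss and 21620, 22290 and 20773 without. It had 30614, 29263 and 30149 in NRF2 libraries with Cyss and 22427, 21954 and 22391 without. All 3 NRF2 libraries with Cyss lay above the GFP libraries with Cyss, and these above all 6 libraries without Cyss, which overlapped. Without Cyss TKT fell by 0.26 in GFP cells (SE 0.0402, adjusted p = 0.00218) and by 0.43 in NRF2 cells (SE 0.0415, adjusted p = 2.66e-06) on the log2 scale. With Cyss it was higher in NRF2 cells by a log2FC of 0.21 (SE 0.0364, adjusted p = 0.0029), whereas without Cyss the log2FC was 0.03 (95% interval -0.05 to 0.12, adjusted p = 0.638).

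TALDO1 (chr11:747415-765012, plus strand) had 3246, 3449 and 3351 normalized counts in GFP libraries with Cyss and 2996, 3286 and 3160 without. It had 4098, 4219 and 4147 in NRF2 libraries with Cyss and 3244, 3330 and 3621 without. The NRF2 libraries with Cyss again stood above all others. Among the 9 genes it had the largest log2FC of NRF2 against GFP cells with Cyss, 0.31 (SE 0.0379, adjusted p = 0.000152). It fell by 0.29 in NRF2 cells without Cyss (SE 0.0494, adjusted p = 0.000618), and in GFP cells its log2FC was -0.09 (SE 0.044, adjusted p = 0.294). Without Cyss its log2FC in NRF2 against GFP cells was 0.10 (adjusted p = 0.234), which passed the test only when all 12 libraries were fitted together (adjusted p = 0.0955). The ratio of TKT to TALDO1 reads was 7.72 ± 0.224 (SD, n = 3) for GFP with Cyss, 6.86 ± 0.327 for GFP without Cyss, 7.23 ± 0.271 for NRF2 with Cyss and 6.56 ± 0.365 for NRF2 without Cyss.

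**Figure D2:**
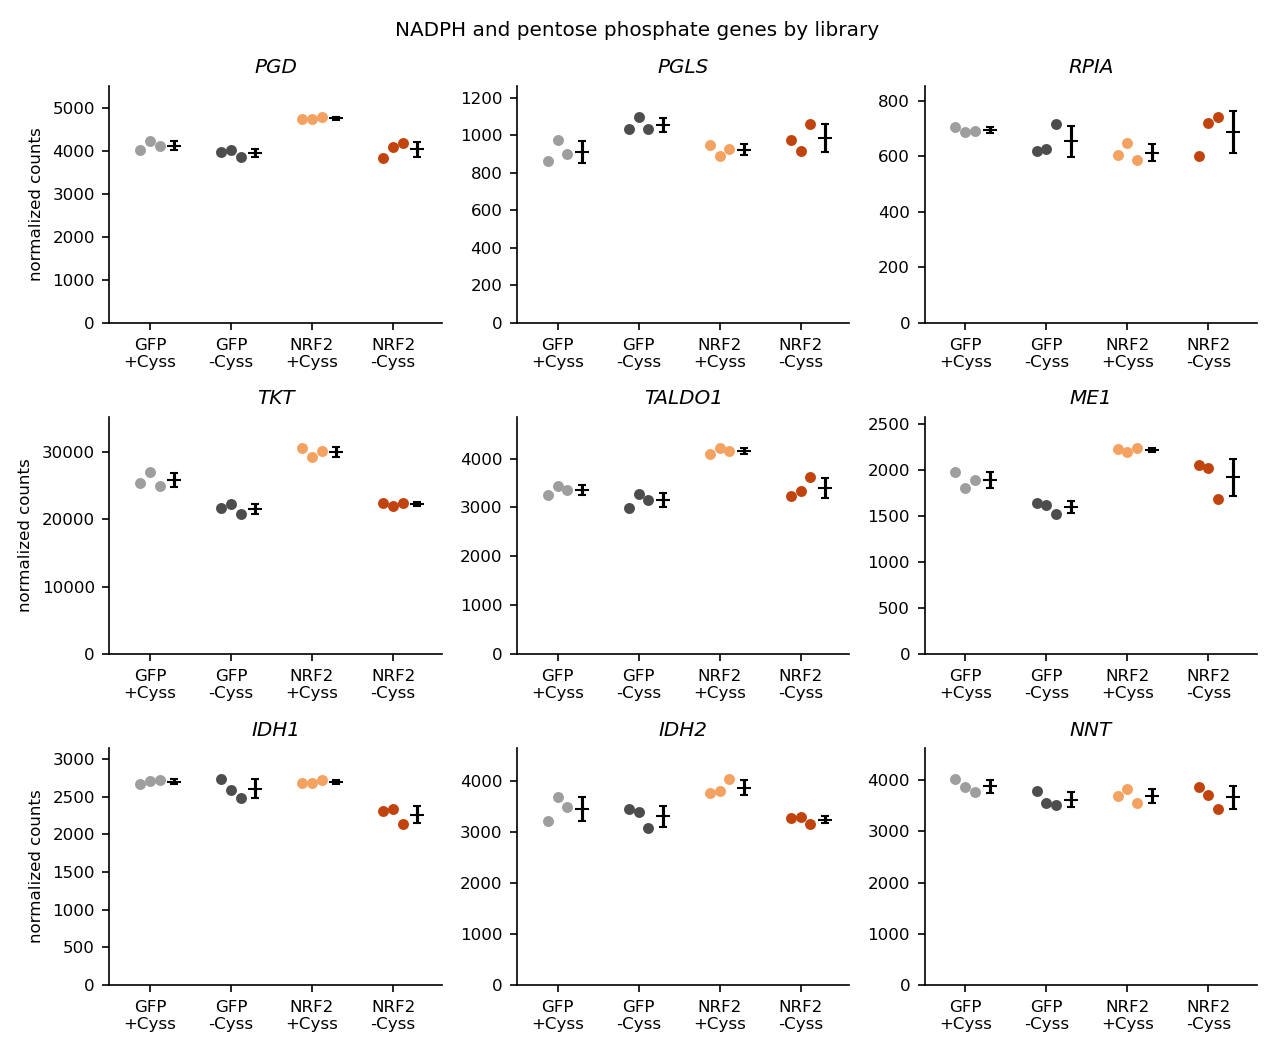
Normalized counts (linear axes from 0) of the 9 genes in the 12 libraries, with 1 point for each library and the mean and SD of each group in black beside its points. In PGD, TALDO1, TKT, ME1 and IDH2 the 3 NRF2 libraries with Cyss (light orange) lie above all 9 others, those of IDH2 only just. In IDH1 the 3 NRF2 libraries without Cyss lie below all others.

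ME1, the cytosolic malic enzyme, converts malate to pyruvate and makes NADPH. It (chr6:83920121-84140770, minus strand) had 1973, 1803 and 1888 normalized counts in GFP libraries with Cyss and 1640, 1622 and 1523 without. In NRF2 libraries it had 2222, 2195 and 2239 with Cyss and 2050, 2020 and 1687 without. No library overlapped between the groups of any of the 4 comparisons. ME1 was the 1 gene of the 9 called in all 4. It was higher in NRF2 than in GFP cells both with Cyss (log2FC 0.23, SE 0.0431, adjusted p = 0.00551) and without (log2FC 0.25, SE 0.0714, adjusted p = 0.0268). It fell without Cyss by 0.24 in GFP cells (SE 0.0494, adjusted p = 0.0159) and by 0.21 in NRF2 cells (SE 0.0654, adjusted p = 0.0316). The last of these was lost without NRF2 with Cyss replicate 3 (log2FC -0.21, adjusted p = 0.111), and without NRF2 without Cyss replicate 3, the lowest of its group, the log2FC was -0.13.

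IDH1 and IDH2 oxidize isocitrate and make NADPH in the cytosol and in mitochondria, respectively. IDH1 (chr2:209100953-209130798, minus strand) had 2669, 2706 and 2723 normalized counts in GFP libraries with Cyss and 2734, 2587 and 2487 without. It had 2683, 2681 and 2720 in NRF2 libraries with Cyss and 2305, 2340 and 2132 without. The NRF2 libraries without Cyss lay below the other 9. IDH1 fell by 0.26 in NRF2 cells without Cyss (SE 0.0493, adjusted p = 0.00171) and in that medium it was below its level in GFP cells, with a log2FC of -0.22 (SE 0.0544, adjusted p = 0.0158). With Cyss the log2FC of NRF2 against GFP cells was 0.00 (95% interval -0.08 to 0.07, adjusted p = 0.975), and in GFP cells that of withdrawal was -0.05 (95% interval -0.14 to 0.03, adjusted p = 0.55). The antisense gene IDH1-AS1, which shares 94 bases of exon, had 2 to 10 reads per library.

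IDH2 (chr15:90626277-90645709, minus strand) had 3207, 3674 and 3478 normalized counts in GFP libraries with Cyss and 3452, 3395 and 3071 without. It had 3753, 3808 and 4037 in NRF2 libraries with Cyss and 3271, 3287 and 3163 without. It fell by 0.26 in NRF2 cells without Cyss (SE 0.0466, adjusted p = 0.00109), where the groups were well apart. With Cyss it was higher in NRF2 than in GFP cells by a log2FC of 0.16 (SE 0.048, adjusted p = 0.0771), with groups only just apart. This call was lost with all 12 libraries in the fit and was kept in 1 of 6 fits with a library left out. The log2FC was 0.11 (adjusted p = 0.13) without GFP with Cyss replicate 1, 0.17 (adjusted p = 0.199) without replicate 3 of that group, and 0.18 (adjusted p = 0.165), 0.17 (adjusted p = 0.138) and 0.13 (adjusted p = 0.297) without NRF2 with Cyss replicates 1, 2 and 3. The ratio of IDH2 to IDH1 reads was 1.28 ± 0.0782 (SD, n = 3) for GFP with Cyss, 1.27 ± 0.0393 for GFP without Cyss, 1.43 ± 0.0443 for NRF2 with Cyss and 1.44 ± 0.042 for NRF2 without Cyss, so within each cell population the ratio differed between media by less than its SD.

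NNT, which uses the mitochondrial proton gradient to pass hydride from NADH to NADP, was not called in any comparison. NNT (chr5:43602794-43707507, plus strand) ranged from 3773 to 4024 normalized counts in GFP libraries with Cyss, from 3518 to 3784 without, from 3554 to 3830 in NRF2 libraries with Cyss and from 3427 to 3863 without. Its log2FC lay between -0.10 (GFP cells without against with Cyss, 95% interval -0.19 to -0.02, adjusted p = 0.228) and 0.01 (NRF2 against GFP cells without Cyss, 95% interval -0.10 to 0.11). In GFP cells the unadjusted p of edgeR's test was 0.0328. The antisense gene NNT-AS1, which shares 295 bases of exon with it, had 432 to 684 reads per library, and without strand the reads of the shared bases cannot be told apart.

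The third question was whether NRF2 cells answered the withdrawal of Cyss differently from GFP cells, which was tested as an interaction over all 12 libraries. In 4 of the 9 genes the NRF2 response lay below the GFP response, and in 0 above by edgeR or DESeq2 (1, RPIA, at an unadjusted p under 0.05), with 6.13% of all 17674 genes called below 0 and 8.97% above 0. The difference of the responses was -0.20 on the log2 scale for IDH1 (SE 0.0642, adjusted p = 0.0553), -0.18 for PGD (SE 0.0579, adjusted p = 0.064), -0.17 for TKT (SE 0.056, adjusted p = 0.0652) and -0.20 for TALDO1 (SE 0.0669, adjusted p = 0.0694). IDH2 had a similar difference that did not pass the test, -0.19 (SE 0.0756, adjusted p = 0.118). For ME1 it was 0.03 (95% interval -0.14 to 0.20, adjusted p = 0.855) and for RPIA 0.25 (95% interval 0.04 to 0.46, adjusted p = 0.148). Of the 4 genes called, PGD, TKT and TALDO1 were higher in NRF2 than in GFP cells with Cyss and not called without it, whereas IDH1 was not called with Cyss and was lower in NRF2 cells without it.

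These calls depended on single libraries. At an adjusted p under 0.05, 0 of the 9 genes were called by edgeR and 2 by DESeq2 (TKT and IDH1), whereas 5 below 0 and 1 above 0 had an unadjusted p under 0.05. None of the 4 calls held without GFP with Cyss replicate 1 (log2 differences from -0.19 for IDH1 to -0.16 for PGD), GFP without Cyss replicate 2 (from -0.21 for IDH1 to -0.15 for TKT) or NRF2 with Cyss replicate 3 (from -0.21 for TALDO1 to -0.17 for TKT). Without NRF2 without Cyss replicate 1 only TKT and IDH1 of the 4 stayed called, without its replicate 2 only PGD and IDH1, and without its replicate 3 all 4. Of the 12 fits with a library left out, PGD, TALDO1 and TKT were each called in 5 and IDH1 in 8, and their differences stayed between -0.25 and -0.14. The call of PGD was also lost with no filter on low counts (-0.18). IDH2, which was not called with all libraries, passed without GFP with Cyss replicate 2 (-0.24, adjusted p = 0.0556) or GFP without Cyss replicate 3 (-0.24, adjusted p = 0.0416). RPIA passed without GFP without Cyss replicate 3 (0.33, adjusted p = 0.0566) or NRF2 without Cyss replicate 1 (0.34, adjusted p = 0.0299).

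**Figure D3:**
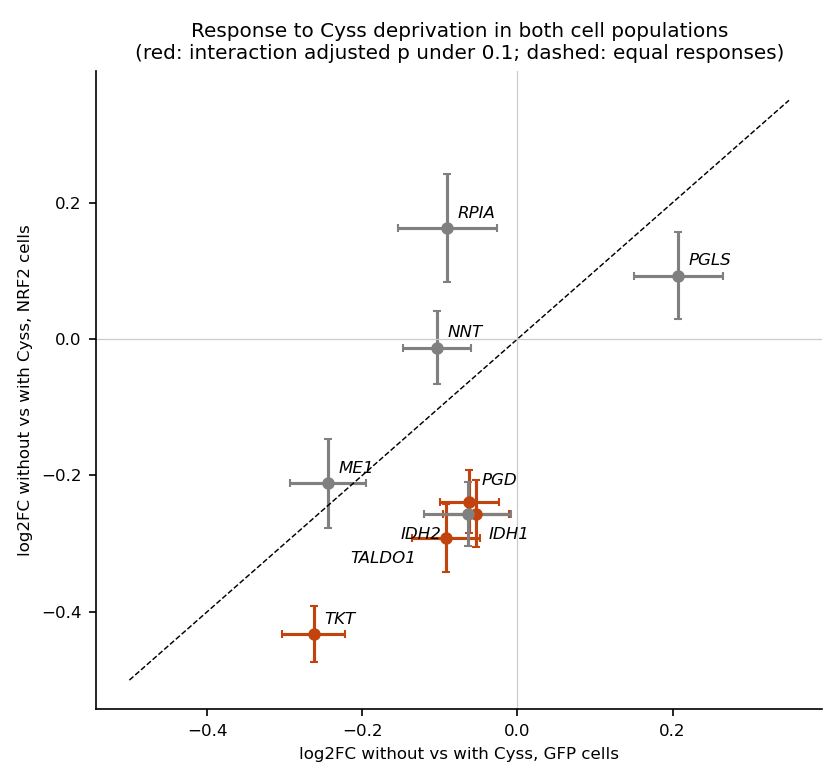
Log2FC of Cyss withdrawal, with GFP cells on the x axis and NRF2 cells on the y axis, for the 9 genes, with standard errors as bars. Points below the dashed line of equal responses fell further, or rose less, in NRF2 cells, and red points (PGD, TALDO1, TKT and IDH1) had an interaction with an adjusted p under 0.1. ME1 lies near the line, at -0.24 and -0.21.

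Over the 12 libraries, the log2 normalized counts of PGD and TALDO1 moved together (Pearson r = 0.956). So did those of PGD and TKT (r = 0.903), PGD and IDH2 (r = 0.864), TKT and IDH2 (r = 0.86) and TALDO1 and TKT (r = 0.851). ME1 was less close to PGD (r = 0.699), and IDH1 still less (r = 0.389). For RPIA and PGLS the r with PGD was -0.38 and -0.38, about the size of that of IDH1 with the other sign. These values describe 12 libraries that fall into 4 groups and share those groups' differences. Among 12286 genes whose mean reached 100 normalized counts, the closest to PGD were FTL (ferritin light chain, r = 0.985), its pseudogene FTLP3 (r = 0.973) and TALDO1. The closest to TALDO1 were FTL (r = 0.974), SQSTM1 (an autophagy receptor, r = 0.961) and SLC39A7 (a zinc transporter, r = 0.958). For TKT they were TRIM16L (r = 0.974), NQO1 (a quinone reductase that uses NADPH, r = 0.974) and SLC2A10 (a sugar transporter, r = 0.969), and for ME1 LYN (a tyrosine kinase, r = 0.96), ZNF618 (r = 0.943) and ANGPT1 (a secreted ligand of an endothelial receptor, r = 0.943).

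The neighbouring genes were taken as 4 lists. Of 10 tested genes in the list of other pentose phosphate genes, 0 were called in GFP cells without Cyss by edgeR or DESeq2 (2 were lower at an unadjusted p under 0.05), and in NRF2 cells 1 was higher (0 by DESeq2) and 2 were lower, beside the 15.2% and 13.8% of all genes called there. In NRF2 against GFP cells with Cyss, 1 was higher and 1 lower, beside 4.15% and 2.28% of all genes. Without Cyss 4 were higher and 3 lower, beside 14% and 14.7%. The list's median log2FC lay between -0.07 and -0.01 in the 4 comparisons, beside medians of all genes between -0.02 and 0.00. RBKS, ribokinase, was the 1 gene here past 0.32, with 50.1 ± 4.51 normalized counts in GFP cells and 27.3 ± 4.3 in NRF2 cells without Cyss (log2FC -0.88, adjusted p = 0.00803). The phosphoribosyl pyrophosphate synthetases PRPS1 and PRPS2, which use ribose 5-phosphate, had interactions of opposite sign, -0.20 (adjusted p = 0.0388) and 0.25 (adjusted p = 0.039). That is 1 below and 1 above 0 of the 10 tested, beside 6.13% and 8.97% of all genes. Each was called in 9 of 12 fits with a library left out, and that of PRPS1 was also lost with no filter on low counts.

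Among 11 tested genes in the list of other NADPH and NADP sources, 3 rose in GFP cells without Cyss, beside 3.11% of all genes. Upon withdrawal from NRF2 cells 5 rose (4 by DESeq2), beside 15.2%. In either, 0 fell by edgeR, by DESeq2 or at an unadjusted p under 0.05, beside 2.81% and 13.8% of all genes called lower. The genes that rose included 3 enzymes of mitochondrial one-carbon metabolism in both cells, in the direction opposite to TKT and ME1. Not every gene of the list makes NADPH itself. MTHFD1L, a synthetase, does not, and the counts do not show which cofactor MTHFD2 used. MTHFD2, which oxidizes methylene tetrahydrofolate, went from 4048 ± 134 to 8387 ± 327 normalized counts in GFP cells (log2FC 1.05, adjusted p = 5.61e-09) and from 3863 ± 31.1 to 8239 ± 386 in NRF2 cells (log2FC 1.09, adjusted p = 1.39e-09). ALDH1L2, which makes NADPH from formyl tetrahydrofolate in mitochondria, rose by a log2FC of 0.70 in GFP cells (adjusted p = 3.44e-07) and 0.76 in NRF2 cells (adjusted p = 4.73e-08). MTHFD1L, the formyl tetrahydrofolate synthetase of mitochondria, rose by 0.58 (adjusted p = 4.78e-06) and 0.68 (adjusted p = 1.35e-06). MTHFD2L, the paralog of MTHFD2, was not called in GFP cells and rose in NRF2 cells from 481 ± 67.6 to 780 ± 113 (log2FC 0.70, adjusted p = 0.000264), and its difference from the GFP response was 0.85 (adjusted p = 0.00971). In NRF2 against GFP cells with Cyss, 0 genes of this list were higher (also by DESeq2 and at an unadjusted p under 0.05). There 1 was lower, and 4.15% of all genes were called higher and 2.28% lower. Without Cyss 1 was higher, MTHFD2L (log2FC 0.87, adjusted p = 0.00037), beside 14% of all genes.

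The NAD-linked neighbours are enzymes and carriers of the citrate and malate steps. Of 12 tested, 0 were called in GFP cells without Cyss by edgeR or DESeq2 (1 was higher and 1 lower at an unadjusted p under 0.05), and in NRF2 cells 3 were higher and 1 lower (0 lower by DESeq2), none past 0.32, beside 15.2% of all genes called higher and 13.8% lower. NRF2 against GFP cells gave 1 lower and none higher with Cyss, beside 2.28% and 4.15% of all genes. Without Cyss 2 were higher and 1 lower, beside 14% and 14.7%. Interactions were called for ACO1 (0.20), OGDH (0.23), IDH3A (0.17) and MDH1 (-0.19), that is 3 above and 1 below 0 of 12 tested, where 8.97% of all genes were called above and 6.13% below 0. By the Wald test of DESeq2 2 were called above 0 (ACO1 and OGDH) and 0 below. The calls of IDH3A and MDH1 held in 1 and 2 of 12 fits with a library left out.

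The NADPH users are mostly reductases. Of 15 tested, with Cyss 9 were higher in NRF2 cells and 1 in GFP cells, beside 4.15% and 2.28% of all genes. Without Cyss 6 were higher in NRF2 cells and 3 in GFP cells, beside 14% and 14.7%. Upon withdrawal 7 fell in GFP and 9 (8 by DESeq2) in NRF2 cells, beside 2.81% and 13.8% of all genes, and 0 rose in either by edgeR or DESeq2 (1 in GFP cells and 0 in NRF2 cells at an unadjusted p under 0.05). The list's median log2FC was 0.21 for NRF2 against GFP cells with Cyss, -0.12 upon withdrawal from GFP cells and -0.24 upon withdrawal from NRF2 cells. NQO1 went from 16476 ± 288 to 12329 ± 279 normalized counts in GFP cells (log2FC -0.42, adjusted p = 5.84e-06) and from 19806 ± 705 to 13259 ± 661 in NRF2 cells (log2FC -0.58, adjusted p = 5.54e-07). TXNRD1, thioredoxin reductase 1, fell by 0.61 in GFP cells (adjusted p = 3.84e-06) and by 0.34 in NRF2 cells (adjusted p = 0.00031), and its interaction was above 0 (0.27, adjusted p = 0.0381). GSR, glutathione reductase, fell in both cells, by 0.48 and 0.54, and AKR1B10 by 0.76 and 1.29. CBR1, CBR3 and AKR1C1 passed -0.32 upon withdrawal from NRF2 cells, with log2FC of -0.55, -0.60 and -0.63. AKR1B1, AKR1B10 and AKR1C1 were higher in NRF2 than GFP cells by 0.57, 1.44 and 1.33 with Cyss, and by 0.54, 0.89 and 0.87 without. TXNRD1 was higher in NRF2 than GFP cells by 0.35 with Cyss and 0.60 without, and CBR3 was lower without Cyss (-0.43). Interactions below 0 were called for NQO1, CBR1, CBR3, BLVRB, AKR1B10 and AKR1C1, beside 6.13% of all genes below 0 and 8.97% above. They ran from -0.53 for AKR1B10 to -0.16 for NQO1. Those of NQO1 and CBR1 held in 4 of 12 fits with a library left out. The AKR1B and AKR1C genes have close paralogs, and the split of reads among them is uncertain. The list holds known NRF2 targets that earlier results of these data had shown to move, so its counts are not independent evidence of a direction.

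**Figure D4:**
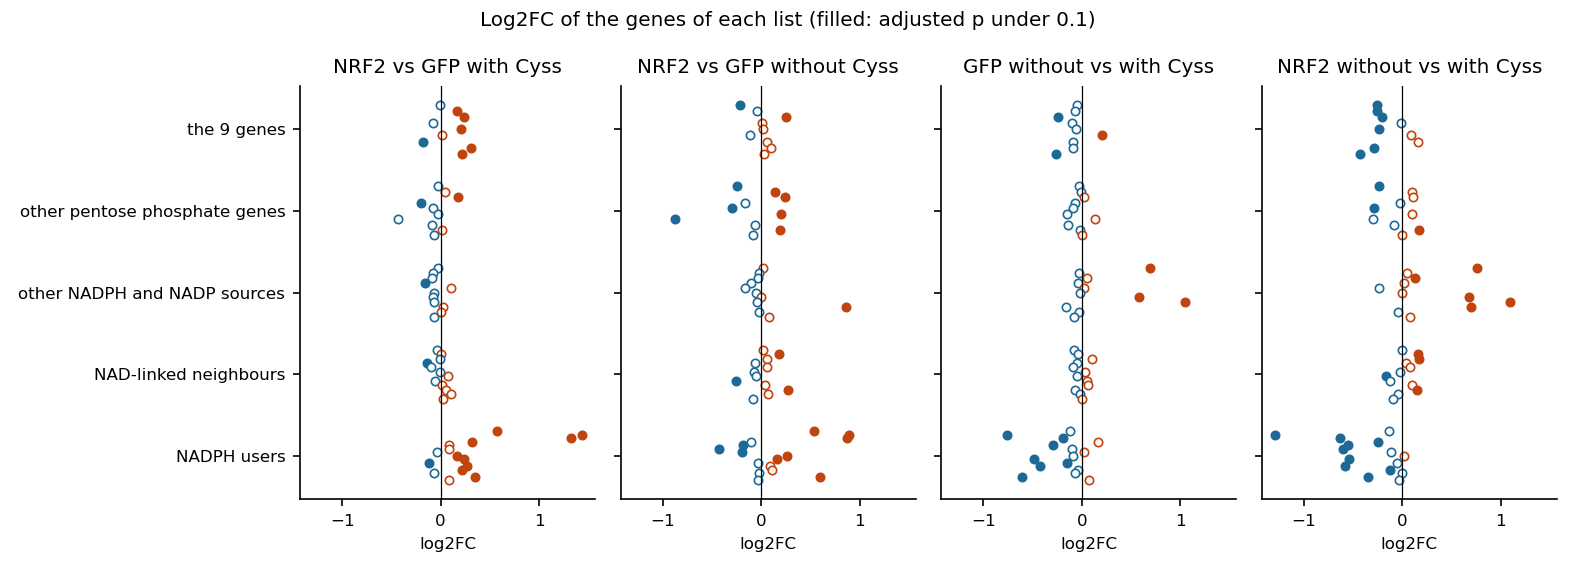
Log2FC (x axis) of every tested gene in the 4 comparisons, by list, with filled points for an adjusted p under 0.1, orange above 0 and blue below. The points of the 9 genes lie between -0.43 and 0.31, those of the NADPH users reach -1.29 and 1.44, and the other NADPH and NADP sources have 3 filled points between 0.58 and 1.05 for GFP cells and 4 between 0.68 and 1.09 for NRF2 cells upon withdrawal of Cyss.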

How the data were processed

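The authors mapped single-end reads from TruSeq (v2) libraries of Hs 578T cells to hg19 with TopHat2 (2.1.0 per the processing notes) and counted them on exons with HTSeq (0.11.2), without regard to strand. The values deposited by the authors are raw read counts per gene symbol for each of 12 libraries, and the annotation version is not given in the sources used here. Genes named as rRNA (523) were removed, as was the unassigned share of the reads, 15.9 to 17.1% per library.

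In each comparison of 6 libraries, genes were kept if the mean of a group reached 10 normalized counts, scaled by TMM and tested with edgeR 4.0.16 (R 4.3.3), with the quasi-likelihood test and Benjamini-Hochberg adjustment, and a call was an adjusted p under 0.1. The 95% intervals are 1 gene's own and are not adjusted. They come from a standard error taken from the test's F statistic and from the normal distribution. They are thus somewhat narrower than the test itself would give. The interaction used all 12 libraries. Where the study fitted DESeq2, edgeR was used here on the raw counts and DESeq2 (1.42.0) as an alternative. Normalized counts by library were scaled over all 12 libraries. Genes are placed by GENCODE 44 lifted to GRCh37, and promoter windows are RefSeq's (GRCh38.p14), matched exactly to GRCh37. Plots were made with matplotlib 3.10.9. The members and gene lists were chosen with earlier results of these data known. All 9 members were named. Genes of the lists were named when past 0.32 in size with an adjusted p under 0.1, or with an interaction, and the 3 genes most like PGD, TALDO1, TKT and ME1 by correlation. Alternatives were other scalings, filters, thresholds and tests, a replicate block, all 12 libraries in the fit and each library left out. A marker of the leukocyte list is not reported here. TMM over all genes and rRNA genes kept were added after seeing the data.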

Additional observations from a re-analysis of the deposited data

Results flagged for a closer look

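For 4 of the 9 genes the response to Cyss withdrawal differed between NRF2 and GFP cells in the interaction test (edgeR, adjusted p under 0.1). The NRF2 response minus the GFP response was -0.18 on the log2 scale for PGD, -0.20 for TALDO1, -0.17 for TKT and -0.20 for IDH1. Over all 17674 genes tested, 6.13% were called below 0 and 8.97% above 0. None of the 4 had an adjusted p under 0.05 by edgeR. With 1 library left out, 0 to 6 of the 9 genes were called.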

How the results depend on the processing

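Of 1515 recomputed log2FC of single genes, 1376 kept their direction and side of the threshold, 112 lost the call, 10 gained it and 17 changed sign. At an adjusted p under 0.05, the members higher in GFP cells without Cyss, lower in NRF2 against GFP cells with Cyss and with an interaction were each 0. With a log2FC above 0.32 in size also required, 1 member was lower in NRF2 cells without Cyss and 0 remained in every other comparison and direction. The 1 member lower in NRF2 against GFP cells with Cyss became 0 with library size only, the DESeq2 Wald test, the replicate block or all 12 libraries in the fit. All 12 libraries gave 2 members higher in NRF2 against GFP cells without Cyss. With the replicate block 1 member was higher in NRF2 cells without Cyss, RPIA. Correlations of same-numbered libraries ran from -0.0262 to 0.139, which does not settle whether the replicate numbers pair the libraries. Not every library correlated best with its own number.

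With 1 library left out, the count of members upon withdrawal was 0 to 1 higher in GFP cells, and 0 to 1 higher and 5 to 6 lower in NRF2 cells. In NRF2 against GFP cells it was 4 to 5 higher and 0 to 1 lower with Cyss, and 1 to 2 lower without Cyss. With an interaction it was 0 to 6. Sign changes were all among values that were not called. Library size only gave 0.0048 for IDH1 in NRF2 against GFP cells with Cyss, -0.0167 for PGD and -0.0269 for NNT without Cyss, and -0.0199 for the interaction of ME1. With 1 library left out, NNT ranged from -0.0503 to 0.0347 in NRF2 cells without against with Cyss and from -0.0277 to 0.0526 in NRF2 against GFP cells without Cyss. PGLS ranged from -0.0272 to 0.0641 and IDH1 from -0.0116 to 0.00192 with Cyss, PGD from -0.00839 to 0.0569 without Cyss, and the interactions of ME1 from -0.0179 to 0.118 and of NFE2L2 from -0.0712 to 0.0179. The causes were not tested.

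Over all genes, the calls higher and lower were 543 and 490 in GFP cells, against 497 and 723 with TMM over all genes and 712 and 1125 with no filter. They were 2633 and 2379 in NRF2 cells, against 1847 and 4025 with library size only. In NRF2 against GFP cells with Cyss they were 724 and 398, against 644 and 594 with TMM over all genes, 781 and 732 with no filter, 440 and 318 with DESeq2 and 424 and 138 with all 12 libraries. Without Cyss they were 2425 and 2551, against 1996 and 3427 with library size only. The interaction had 1585 above and 1084 below 0, against 1126 and 1981 with library size only.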
